A study of Rattus norvegicus with 12 samples.

Results

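Diabetes was compared with its absence in rat hearts that had a sham operation and no infarct. The comparison rests on 2 of the 12 arrays of the study, 1 diabetic and 1 non-diabetic, chosen by their labels and not by any measured value. Each array held myocardial RNA of 3 male Sprague-Dawley rats, pooled in balanced amounts. At 8 weeks of age the diabetic rats had received a single intraperitoneal dose of 65 mg/kg streptozotocin (STZ), a toxin that is taken up by pancreatic beta cells and destroys them, and the non-diabetic rats had received sodium citrate buffer. Both groups were kept for 10 weeks without control of blood sugar, were then sham operated, and were 18 weeks old. The tissue came from the free wall of the left ventricle. The label of both sham arrays calls it the remote zone after infarction, whereas their protocol describes a sham operation, and the protocol was followed here. The sources used here do not state the time from the sham operation to the taking of the heart, or the hour of day. The other 10 arrays form 5 pairs from rats of the same 2 treatments whose left anterior descending coronary artery had been ligated 1, 7, 14, 28 or 56 days earlier. They were used to see whether a difference of the sham pair was also present in other rats. In the day 56 pair the labelled age was 26 weeks for the diabetic array and 22 weeks for the non-diabetic array.

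With 1 array a side there is no spread between sham samples and the sham difference has no test. A difference is diabetic minus non-diabetic log2(intensity + 16), so that 1 is 2-fold, and adding 16 makes the difference of a dim gene smaller than it would otherwise be. For a gene, 2 values joined by "and" after its name are its intensities on the non-diabetic and then the diabetic sham array, and a single value, or one in brackets, is the sham difference. Values in the ligated pairs are the mean of the 5 differences with the standard error of a limma fit, and their p-values were adjusted by the Benjamini-Hochberg method over all probe sets kept, at a threshold of 0.05. That error is the spread of the difference over the days and not between rats.

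The adult heart makes most of its ATP from fatty acids, which it takes from lipoproteins through lipoprotein lipase and from albumin, and the rest from glucose, lactate and ketone bodies. Insulin moves the glucose transporter GLUT4 to the myocyte surface and holds back the release of fatty acids from fat. Without insulin, fatty acids in blood rise and act in the heart as ligands of the nuclear receptor PPARα, which switches on genes of fatty acid use. PDK4, one of these, blocks the entry of pyruvate into the mitochondrial oxidation of glucose.

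Of 18625 probe sets kept after a filter on low values, 144 (0.773%) were 2-fold or more higher and 128 (0.687%) 2-fold or more lower on the diabetic than on the non-diabetic sham array, which is 1.46% either way. Among 10623 genes, each represented by its brightest probe set, 86 (0.81%) were higher and 82 (0.772%) lower, 1.58% either way. The differences were centred close to 0, with a median over genes of -0.04 and 43.7% of genes above 0 (4642 above and 5980 below). Counts of list members above or below 0 are to be read beside that share, and counts past 2-fold beside 0.81% higher and 0.772% lower. In the ligated pairs 3.16% of probe sets were past 2-fold at day 1, 1.01% at day 7, 7.54% at day 14, 11.9% at day 28 and 3.39% at day 56, so that the arrays of every ligated pair but that of day 7 were less alike than those of the sham pair. The count depends on the number added before the logarithm: with 1 in place of 16 it was 518 probe sets, and with 64 it was 109.

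Median intensity was 30.3 on the non-diabetic and 30.0 on the diabetic sham array. The 3′ over 5′ log2 difference of the β-actin control was 0.50 and 0.48, and that of the GAPDH control 0.24 and 0.36. On the arrays of days 1 and 7 the β-actin value was 0.97 to 0.99, and on the other ligated arrays 0.37 to 0.59. The 9 hybridisation controls differed by -0.34 to -0.21 on the log2 scale, diabetic minus non-diabetic, and the 15 poly-A controls differed by -0.91 to 0.10 with a median of -0.66. Transcripts that define cardiomyocytes were bright on both arrays: the cardiac troponin T gene Tnnt2 was at 7337 and 6414 and the ventricular light chain gene Myl3 at 6845 and 5769 intensity units.

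**Figure D1:**
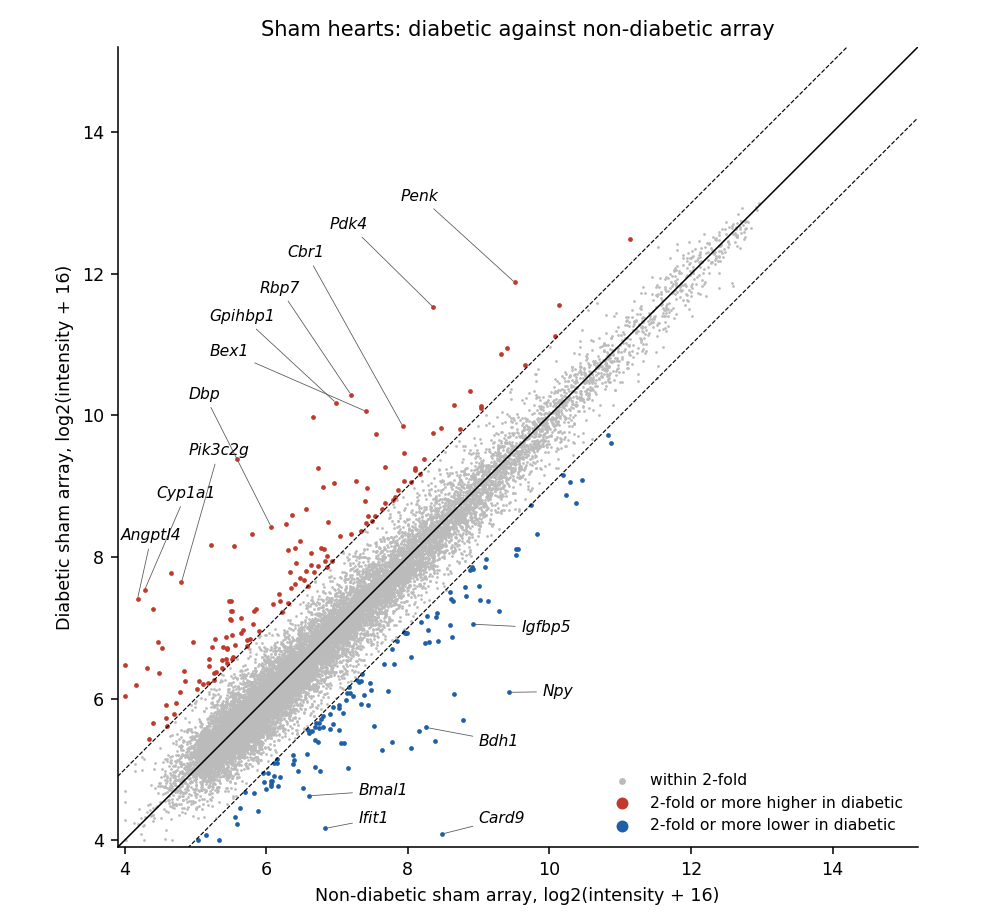
Level of each of 18625 probe sets on the diabetic (vertical axis) against the non-diabetic (horizontal axis) sham array, both as log2(intensity + 16), with 1 point for each probe set. The solid line marks equal levels and the dashed lines 2-fold; 144 probe sets (red) lie above the upper and 128 (blue) below the lower dashed line, and some of the genes with the largest differences are named.

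Genes past 2-fold in the sham pair leaned the same way in the ligated rats, whose differences the choice of genes had not used. Ligated levels did enter that choice, because the filter on low values took the mean over all arrays, sham and ligated. How far the filter adds to the shared direction was not tested. Of the 86 genes higher in sham, 66 (76.7%) had a mean ligated difference above 0, against 48.8% of all genes, with a median of 0.52. Of the 82 lower genes, 65 (79.3%) were below 0, with a median of -0.47. The sign was that of sham on all 5 ligated days for 26 (30.2%) of the higher and 32 (39%) of the lower genes, and for 6.82% of all genes. The median of the higher genes was 0.02 at day 1 and 0.47 to 0.82 at the later days, and that of the lower genes was -0.41 to -0.74 on every day. In the test on the ligated pairs alone, 20 probe sets (0.107%) passed, 11 (0.0591%) higher and 9 (0.0483%) lower, and all 20 had the same sign in the sham pair. Of these, 14 were past 2-fold in sham, and the smallest sham difference among the 20 was 0.80 in size. The number that passed was 16 without the day 1 pair, 8 without day 7, 6 without day 14, 40 without day 28 and 6 without day 56. It was 9 with days 14 to 56 alone, the days whose β-actin control was like that of the sham arrays. The genes Card9, Pik3c2g, Acot1, Cyp1a1 and Tceal5 passed under every alternative run, and the other 15 probe sets missed the threshold under 1 or more, 10 without day 1, 13 without day 7, 14 without day 14 and 14 without day 56.

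Several probe sets of a gene measure the same transcript on the same arrays, so their agreement bears on probe noise and not on the spread between rats. Of the 14 genes higher past 2-fold that had 2 or more probe sets, 10 (71.4%) had all of them above 0, and of 19 lower genes 17 (89.5%) had all below 0, against 61.2% of the 2792 such genes in all with 1 sign. Probe sets disagreed in sign for Slfn4, Agpat3, Lipe, Ogn, Nfix and Dusp6. For Dusp6, a phosphatase that turns off ERK, they ran from -2.40 to 1.24, so no direction is given for it.

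**Figure D2:**
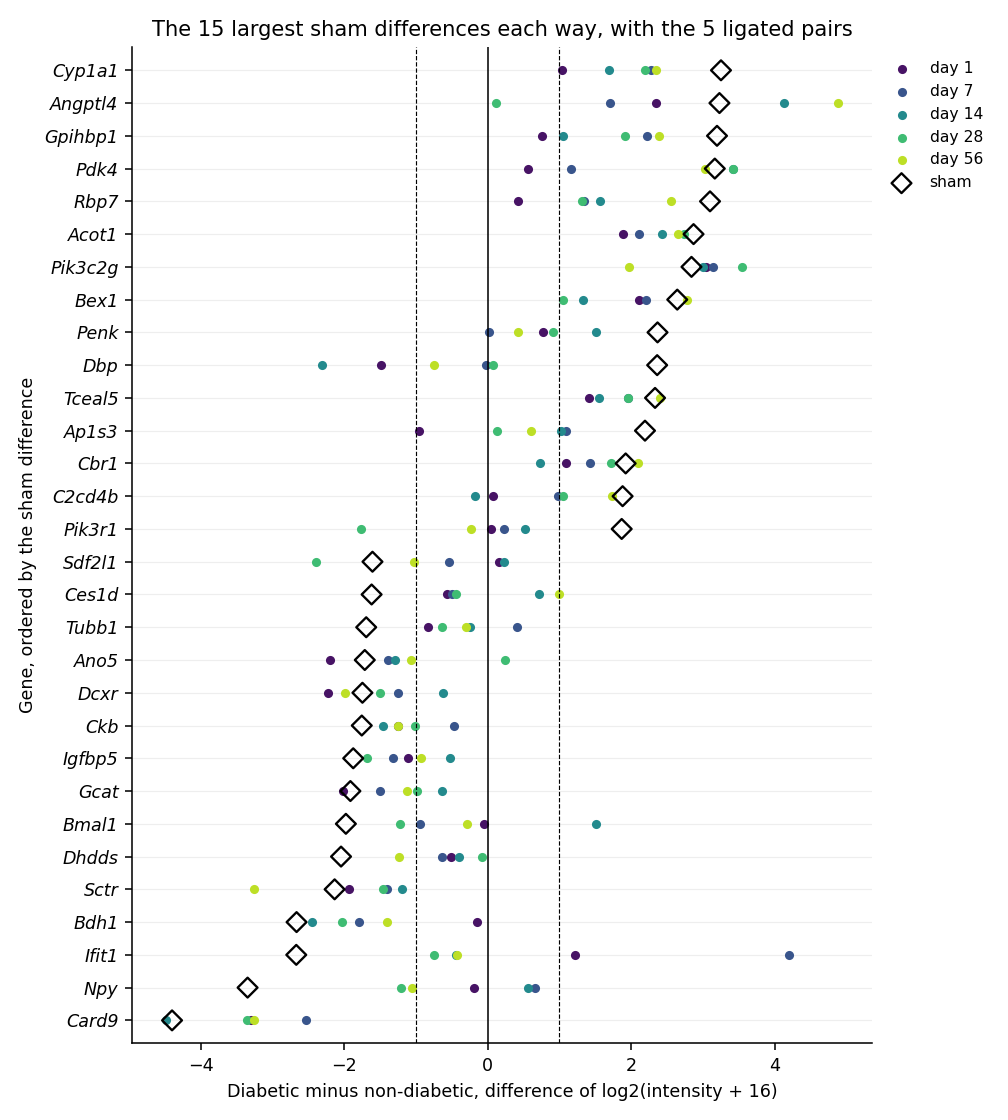
Difference between diabetic and non-diabetic arrays (horizontal axis, log2) for the genes of largest sham difference, 15 above and 15 below 0 (vertical axis), with the sham pair as open diamonds and the 5 ligated pairs as dots coloured by day. Dashed lines mark 2-fold; all 5 ligated dots of Acot1, Pik3c2g and Card9 lie past 2-fold on the side of sham, whereas those of Dbp, Npy and Ifit1 lie on both sides of 0.

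Control of lipoprotein lipase and of pyruvate oxidation gave the largest differences of any fuel genes. Pdk4 was at 313 intensity units on the non-diabetic and 2937 on the diabetic sham array, a difference of 3.17 with its other probe set at 3.32. In the ligated pairs it was 2.32 ± 0.39 (SE, 5 pairs, limma adjusted p = 0.0655), above 0 on every day, from 0.56 to 3.43. On the log2 scale the non-diabetic ligated arrays ran from 7.27 to 10.57 and the diabetic ones from 10.49 to 12.06, so the groups overlapped through the non-diabetic day 1 array. Angptl4, a secreted inhibitor of lipoprotein lipase, was at 2.15 and 155 (3.23), and was 2.64 ± 0.54 (SE, 5 pairs, limma adjusted p = 0.128) after ligation, with a single day, day 28, near 0 at 0.11. Gpihbp1, which holds the lipase at the capillary wall, was at 111 and 1145 (3.20) and passed the test in the ligated pairs at 1.67 ± 0.26 (SE, 5 pairs, limma adjusted p = 0.0406). The gene of the lipase itself, Lpl, differed by -0.33. An inhibitor of the enzyme and its capillary anchor were thus both higher on the diabetic sham array while the enzyme's own transcript was not past 2-fold.

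The 250 bases before the start sites of Pdk4 and Angptl4 are shown because these genes had the largest differences among the fuel genes with a promoter in the RefSeq table used (build GRCr8). They were searched on both strands for the direct repeat of AGGTCA with 1 base between the copies, which PPAR and RXR bind as a pair, for a looser form with any base at the fourth place of each copy, and for GTAAACA, a site of FoxO factors. These occur in 0.0508%, 0.368% and 3.21% of 33469 promoter windows of that length. No match was found in either window, so both are printed without capitals, 5′ to 3′ on the gene's strand; this says only that these letters are not in these windows.
Pdk4, chr4:34568330-34568579, reverse strand: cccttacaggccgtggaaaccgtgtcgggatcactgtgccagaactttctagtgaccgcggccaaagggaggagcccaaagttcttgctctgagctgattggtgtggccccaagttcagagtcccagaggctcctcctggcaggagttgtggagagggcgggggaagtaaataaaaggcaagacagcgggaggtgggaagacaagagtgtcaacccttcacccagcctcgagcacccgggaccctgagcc
Angptl4, chr7:15258682-15258931, reverse strand: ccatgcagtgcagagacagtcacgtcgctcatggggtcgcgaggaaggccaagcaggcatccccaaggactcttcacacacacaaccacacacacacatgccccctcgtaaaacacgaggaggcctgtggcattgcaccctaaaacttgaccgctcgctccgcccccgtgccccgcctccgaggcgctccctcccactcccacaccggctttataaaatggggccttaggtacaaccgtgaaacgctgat

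Acyl-CoA thioesterases, which split fatty acids from coenzyme A, and related hydrolases had 4 of 9 kept members past 2-fold higher and none lower, with a median difference of 0.31 beside -0.04 for all genes. Acot1, the cytosolic enzyme, was near the bottom of the range on the non-diabetic sham array at 5.12 and at 138 on the diabetic one (2.87). It passed the test in the ligated pairs at 2.37 ± 0.16 (SE, 5 pairs, limma adjusted p = 0.000191). On the log2 scale the 5 non-diabetic ligated arrays lay at 5.66, 4.41, 4.22, 4.48 and 4.31 from day 1 to day 56 and the 5 diabetic ones at 7.55, 6.53, 6.66, 7.22 and 6.97, with no overlap. The mitochondrial Acot2 was at 619 and 1852 (1.56, with 3 probe sets from 0.83 to 2.17) and the peroxisomal Nudt7, which cleaves coenzyme A, at 189 and 603 (1.60). Their ligated means were 1.19 ± 0.22 and 1.32 ± 0.23 (limma adjusted p = 0.0968 and 0.0684). Acot3, a peroxisomal thioesterase, differed by 1.56 in sham and by -0.06 ± 0.17 after ligation (limma adjusted p = 0.949). Acot1 to Acot3 are close copies of one another, and how far their probes cross-react was not tested.

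Enzymes of fatty acid oxidation were mostly higher by less than 2-fold. Of 26 kept members 22 were above 0 in the sham pair, 1 was past 2-fold and none was 2-fold lower, with a median of 0.32. Cpt1a, which puts fatty acids onto carnitine for entry into mitochondria, was at 230.1 and 694 (1.53), with its other probe set at 1.43. Its ligated mean was 0.89 ± 0.22 (SE, 5 pairs, limma adjusted p = 0.274). The muscle form Cpt1b differed by 0.37. Next were Eci1, Decr1, Ech1 and Crat at 0.95, 0.91, 0.85 and 0.78: the first 3 prepare unsaturated fatty acids for β-oxidation and Crat exchanges acetyl groups between carnitine and coenzyme A. Decr1, the 2,4-dienoyl-CoA reductase, was at 1623 and 3054 and was the 1 member of the list that passed the ligated test, at 1.53 ± 0.20 (SE, 5 pairs, limma adjusted p = 0.0226). Echs1 was the lowest member at -0.55. The median of the list in the ligated pairs was -0.33 at day 1, 0.19 at day 7, 0.23 at day 14, 0.85 at day 28 and 0.75 at day 56, so the sham value lay within the range of the days.

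Among 23 genes of lipid uptake and storage, 5 were past 2-fold higher and 1 lower, with 16 above 0 and a median of 0.36. Beside Angptl4 and Gpihbp1, the fatty acid transport protein Slc27a1 was at 284 and 654 (1.16) and the triglyceride lipase Pnpla2 at 510.4 and 1113 (1.10). Hormone-sensitive lipase, Lipe, was at 1.24 by its brightest probe set and -0.07 by the other. Plin3, a coat protein of lipid droplets, was lower, at 534 and 236 (-1.12), and Vldlr, a lipoprotein receptor, was at -0.88. The fatty acid translocase Cd36 differed by 0.51 and the droplet protein Plin5 by 0.61. Of this list Gpihbp1 alone passed the ligated test. Of 4 adipocyte markers kept, 3 were above 0, with a median of 0.31 and a summed intensity of 3855 and 5870.0. They were Lipe, Fabp4, a fatty acid-binding protein also made in endothelium, at 3541 and 5454 (0.62), Car3 at 14.6 and 14.6 (0.00) and Cfd at 221 and 194 (-0.18). Adiponectin (Adipoq) was at 7.84 and 12.5 and leptin (Lep) at 6.82 and 4.82 intensity units on the non-diabetic and diabetic arrays, both under the filter. The part of adipocytes in the lipid values was not tested.

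The 12 kept regulators of the PPAR and PGC1 family had none past 2-fold in either direction and a median of -0.02. Ppargc1a, the coactivator PGC-1α, was at 189 and 195 (0.04), and Ppara itself was under the filter at 9.06 and 4.22. Ucp3, a mitochondrial carrier that follows fatty acid supply in muscle, was at 36.9 and 97.8 (1.11, other probe set 0.76), with a ligated mean of 1.15 ± 0.25 (SE, 5 pairs, limma adjusted p = 0.178). Pdp2, a phosphatase that opposes the PDKs, was at -0.75 and below 0 on all 5 ligated days. Mlycd, which removes malonyl-CoA, the inhibitor of CPT1, was at 0.64.

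**Figure D3:**
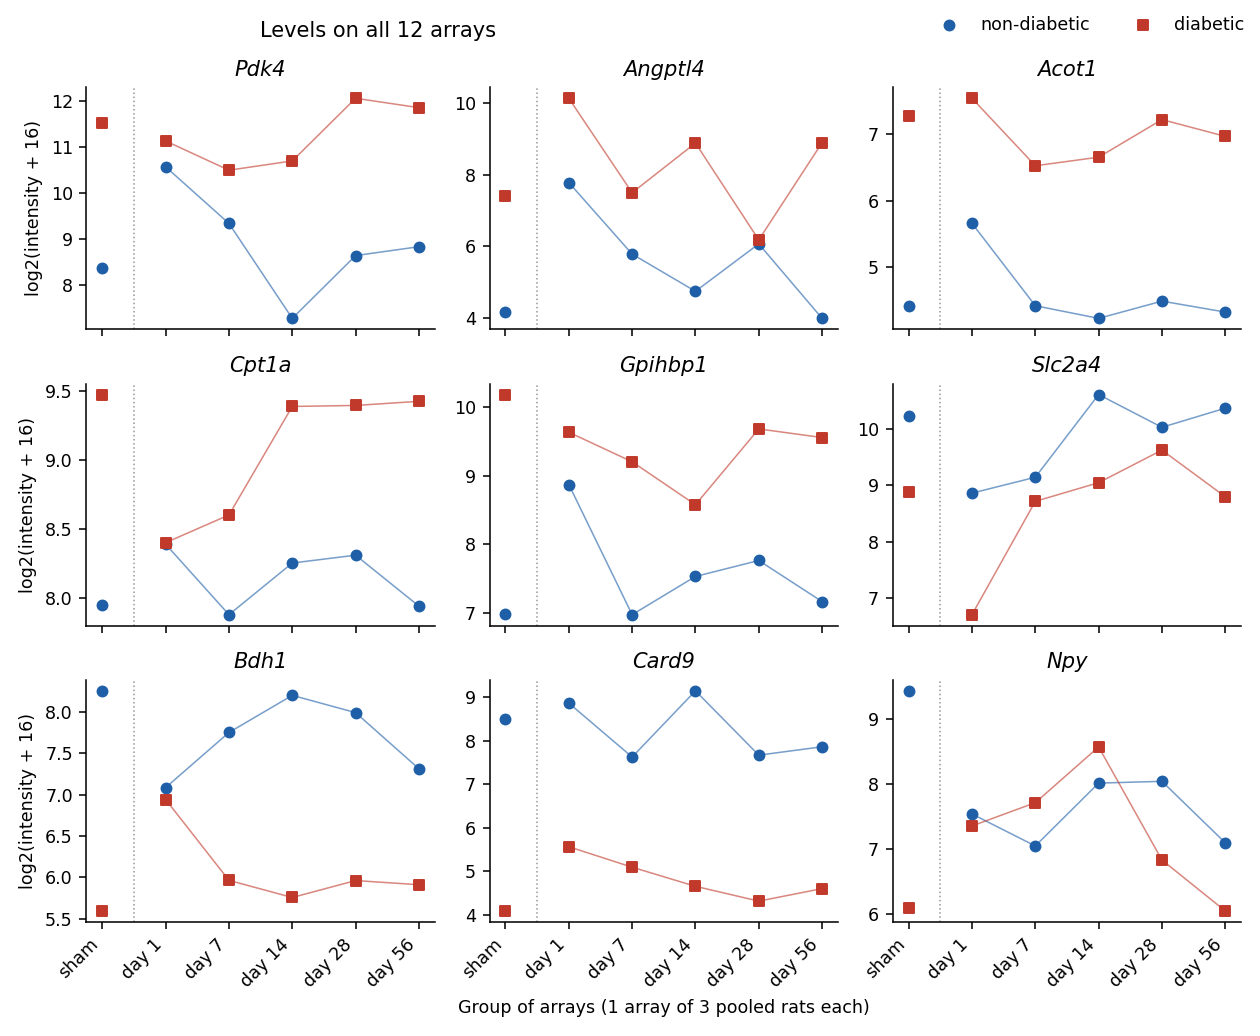
Level, as log2(intensity + 16) on the vertical axes, of 9 genes on all 12 arrays, with the sham pair left of the dotted line and the ligated pairs by day to its right (1 array of 3 pooled rats at each point). Diabetic arrays (red squares) lie above the non-diabetic array of the same pair (blue circles) in all 6 pairs for Pdk4, Angptl4, Acot1, Cpt1a and Gpihbp1 and below it for Slc2a4, Bdh1 and Card9, whereas the lines of Npy cross.

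Of 5 ketone body genes kept, 3 were below 0, 1 of them past 2-fold, with a median of -0.46. Bdh1, the mitochondrial enzyme that opens the oxidation of β-hydroxybutyrate, was at 290.0 and 32.3 (-2.66), with its second probe set at -2.63. It was below 0 on every ligated day, from -2.45 at day 14 to -0.14 at day 1, at -1.56 ± 0.28 (SE, 5 pairs, limma adjusted p = 0.0861). Oxct1, which activates acetoacetate in the same pathway, was at -0.60, and Acat1 at -0.46. The carrier Slc16a1, which brings ketone bodies and lactate into the cell, was at 0.27 by its brightest and -0.34 by its other probe set. Bdh2 was at 0.03. Of 21 genes of glucose uptake and glycolysis none was past 2-fold higher and 2 were lower, with a median of -0.15. Of these 21, 7 were above 0, where 43.7% of all genes were. Slc2a4, which encodes GLUT4, was at 1184 and 453 (-1.36), and its second probe set was at -1.20. After ligation it was -1.22 ± 0.26 (SE, 5 pairs, limma adjusted p = 0.16), below 0 on all 5 days. The muscle enolase Eno3 was at 1850.2 and 764 (-1.26) with a ligated mean of -0.32 ± 0.26 (limma adjusted p = 0.782). The insulin-independent transporter Slc2a1 was at -0.73 and Pgam2, the muscle phosphoglycerate mutase, at -0.84. Pfkfb3, which makes an activator of glycolysis, ran the other way at 0.71. No member of the glucose list or the ketone list passed the ligated test. After ligation the median of the glucose list ran from -0.38 to 0.09 and that of the ketone list from -0.41 to 0.30.

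Breakdown of the branched-chain amino acids leucine, isoleucine and valine was lower almost throughout. Of 19 members, all of them kept, 18 were below 0 and 2 were past 2-fold lower, with a median of -0.49. Bcat2, the mitochondrial aminotransferase of the opening step, was at 530.2 and 217 (-1.23) and Ivd, which oxidises isovaleryl-CoA from leucine, at 1236 and 516 (-1.23). Bckdhb, a subunit of the branched-chain ketoacid dehydrogenase, was at -0.73, its kinase Bckdk at -0.63, and Mccc2, of the leucine pathway, at -0.70. The exception was Bcat1, the cytosolic aminotransferase, at 0.54. After ligation the median of the list was -0.87 at day 1 and -0.22 at day 7 but 0.03 to 0.07 at days 14 to 56, and no member passed the test. Bcat2 was below 0 on all 5 days at -0.87 ± 0.21 (SE, 5 pairs, limma adjusted p = 0.247).

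The tricarboxylic acid cycle had 18 of 21 members below 0 and none past 2-fold, with a median of -0.20, and oxidative phosphorylation 23 of 30 below 0, none past 2-fold, with a median of -0.11. Pyruvate carboxylase, Pc, which refills the cycle, was the lowest of the former at -0.97, at 76.6 and 31.2. Cox7a1, the heart and muscle isoform of a cytochrome oxidase subunit, was the lowest of the latter, at 790.5 and 434 (-0.84), and passed the ligated test at -1.54 ± 0.23 (SE, 5 pairs, limma adjusted p = 0.0406). Cytosolic ribosomal protein genes leaned the other way, with 16 of 19 above 0 and a median of 0.17, from -0.09 to 0.38. None of these list medians kept 1 sign after ligation. They ran from -0.42 to 0.27 for the cycle, -0.35 to 0.11 for oxidative phosphorylation and -0.28 to 0.60 for ribosomal proteins. The medians of all genes ran from -0.19 to 0.21.

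**Figure D4:**
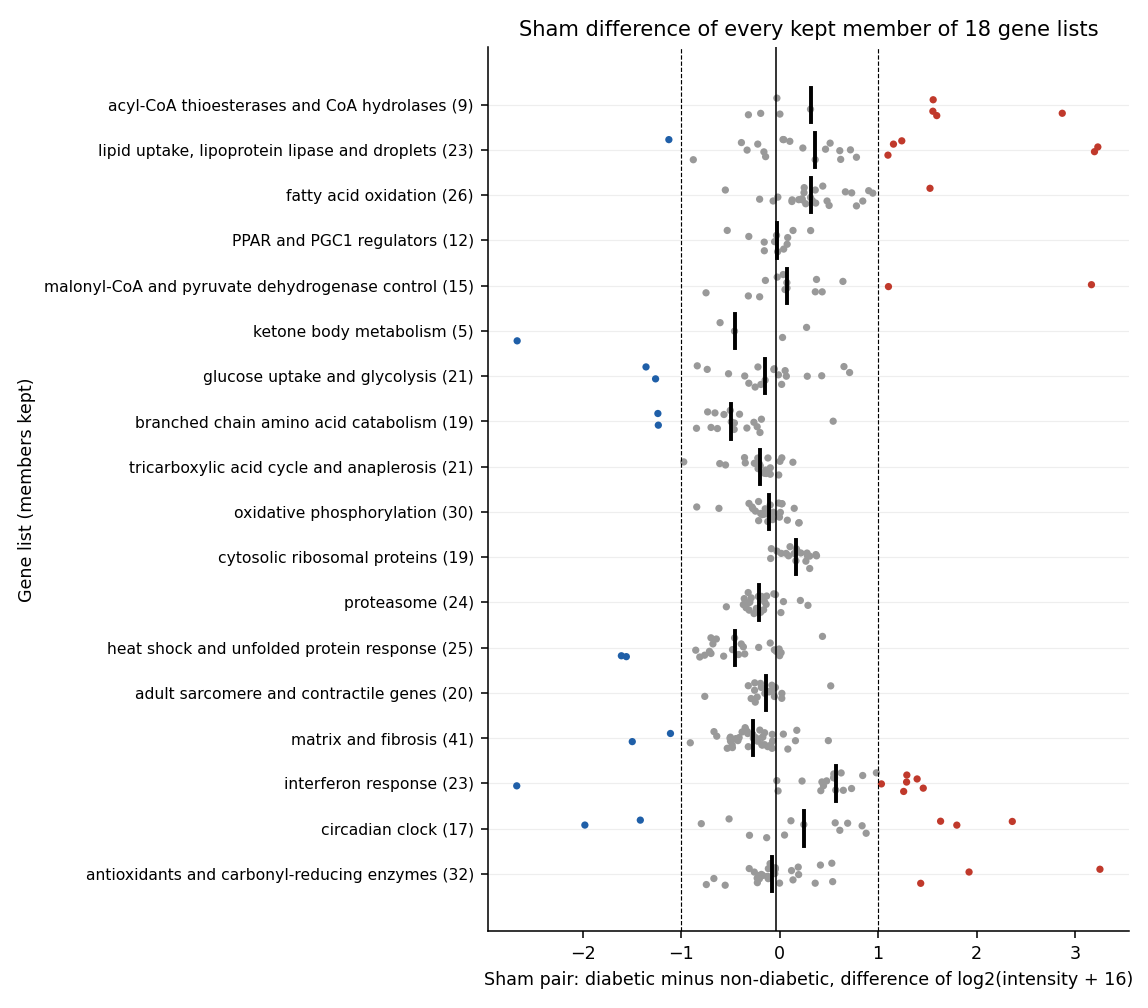
Sham difference (horizontal axis, diabetic minus non-diabetic, log2) of every kept member of 18 gene lists (vertical axis, number of members in brackets), with red and blue points past 2-fold higher and lower and a black bar at each list's median. The vertical line marks the median of all genes, -0.04, and dashed lines 2-fold; the interferon median is farthest to the right at 0.57 and that of branched-chain amino acid catabolism farthest to the left at -0.49.

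Genes of the circadian clock were among the largest differences of the sham pair, with Dbp and both REV-ERB genes higher and Bmal1 and Nfil3 lower on the diabetic array. The clock is a loop in which BMAL1 and CLOCK switch on, through E-box sequences, the genes of their own repressors (Per, Cry) and of REV-ERBα and REV-ERBβ (Nr1d1, Nr1d2), which in turn hold down Bmal1 and Nfil3, while DBP, TEF and HLF carry the rhythm to output genes through D-boxes. Bmal1 was at 81.2 and 8.72 (-1.98) and Nfil3, a repressor at D-boxes, at 146 and 44.7 (-1.41). Cry1 was at -0.79 and Clock at -0.51. Dbp was at 51.1 and 329 (2.36), Nr1d1 at 28.9 and 123 (1.64) and Nr1d2 at 138 and 521 (1.80), the last with 3 probe sets between 1.22 and 1.80. Per2, Per1 and Per3 were at 0.88, 0.84 and 0.69, and Tef and Hlf at 0.61 and 0.57. In all, 3 of 17 kept clock genes were past 2-fold higher and 2 lower, where 0.81% and 0.772% of all genes were.

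Some of the clock genes had the opposite sign in the ligated pairs. Nr1d1 was lower in the diabetic array on all 5 days, by differences of -0.31 to -1.76 with a mean of -0.99 ± 0.23 (SE, 5 pairs, limma adjusted p = 0.23), and Nfil3 was higher on all 5, by 0.26 to 0.98 with a mean of 0.58 ± 0.17 (SE, 5 pairs, limma adjusted p = 0.392). Dbp had a ligated mean of -0.90 ± 0.32 (SE, 5 pairs, limma adjusted p = 0.502). On the log2 scale Dbp was at 6.07 on the non-diabetic sham array, below all 5 non-diabetic ligated arrays (7.41 to 9.08), and at 8.43 on the diabetic sham array, above all 5 diabetic ligated arrays (6.78 to 8.17). The non-diabetic sham array likewise held the lowest Nr1d1 and Nr1d2 levels of the 6 non-diabetic arrays and the highest of Bmal1. Bmal1 took both signs after ligation, from -1.22 to 1.51. The difference of differences, sham minus ligated, had unadjusted p-values in the limma interaction fit of 0.000632 for Nfil3, 0.000693 for Nr1d1 and 0.00153 for Dbp, and was under 0.05 before adjustment for 6 of the 17 genes, where 0.565% of all genes were. None passed after Benjamini-Hochberg adjustment, so no clock gene is shown to differ between sham and ligated hearts. The part that the time of day had in these values was not tested.

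The windows of 250 bases before the start sites of Bmal1, Nr1d1 and Nr1d2 are shown because the directions of these genes in the sham pair were opposite. They come from RefSeq, build GRCr8, and are written 5′ to 3′ on the gene's strand with matches in capitals. The search on both strands covered the E-box CACGTG and the D-box TTATGTAA, found in 5.59% and 0.828% of the 33469 windows, and 2 further motifs added after the windows had been seen: AGGTCA, the core that REV-ERB and ROR receptors recognise, in 14.1%, and the extended REV-ERB and ROR element, the same core with 4 further bases before it, in 0.206%. Both further motifs overlap in Bmal1, where AAGTAGGTCA ends 10 bases before the start. Nr1d1 has 2 start sites in the table, and the window of the second holds 1 E-box. Nr1d2 holds 1 AGGTCA. Dbp and Nfil3 held none of the motifs searched. A match is a description of the letters and not evidence of a bound site.
Bmal1, chr1:176766078-176766327, forward strand: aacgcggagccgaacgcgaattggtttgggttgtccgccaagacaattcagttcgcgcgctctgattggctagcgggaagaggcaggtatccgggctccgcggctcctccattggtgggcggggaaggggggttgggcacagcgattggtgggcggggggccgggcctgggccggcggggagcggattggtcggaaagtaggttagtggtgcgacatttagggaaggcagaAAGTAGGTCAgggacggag
Nr1d1, second start site, chr10:84229455-84229704, reverse strand: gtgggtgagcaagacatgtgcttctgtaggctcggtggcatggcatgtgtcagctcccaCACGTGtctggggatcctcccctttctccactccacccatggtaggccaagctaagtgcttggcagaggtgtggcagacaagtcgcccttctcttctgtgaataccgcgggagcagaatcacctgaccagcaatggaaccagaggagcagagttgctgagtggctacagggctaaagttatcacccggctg
Nr1d2, chr15:9954784-9955033, forward strand: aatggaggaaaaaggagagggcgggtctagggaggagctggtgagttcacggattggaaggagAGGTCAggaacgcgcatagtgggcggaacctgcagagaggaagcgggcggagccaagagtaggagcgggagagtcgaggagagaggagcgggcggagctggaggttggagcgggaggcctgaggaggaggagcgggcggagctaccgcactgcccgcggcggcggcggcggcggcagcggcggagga

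Interferon-response genes were higher on the diabetic sham array. Of 23 kept members 20 were above 0, 6 were past 2-fold higher and 1 lower, and the median of 0.57 was the highest of any pathway list. Mx1, which blocks replication of influenza and related viruses, was at 64.6 and 206 (1.46), the ubiquitin-like Isg15 at 153 and 429 (1.40) and Mx2 at 56.5 and 162 (1.29). Oasl, Ifit3 and Ifit2 were at 1.29, 1.26 and 1.03, and the factors Irf7, Irf9 and Stat2 at 0.48, 0.65 and 0.42. Outside the list Cxcl10, a chemokine induced by interferon, was at 27.2 and 101 (1.43). Of the 3 members below 0, Ifit1 was the only one past 2-fold, at 98.2 and 1.97 (-2.67), and is measured here by 1 probe set. In the ligated pairs that probe set ran from -0.74 to 4.21.

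The interferon difference had no constant sign over the study. The list's median was 1.02 in the day 7 pair and -0.63, -0.21, -0.58 and -0.16 at days 1, 14, 28 and 56, and no member passed the ligated test. Mx1 ran from -1.21 to 1.76 over the 5 days and Isg15 from -1.60 to 1.72. Of immune cell markers in the sham pair, 9 of 13 for macrophages were below 0 with a median of -0.28. So were 7 of 9 lymphocyte and all 3 neutrophil markers kept, where 43.7% of all genes were above 0. Of mast cell markers 3 of 4 were above 0, with a median of 0.24. The part of immune cells in the interferon values was not tested.

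**Figure D5:**
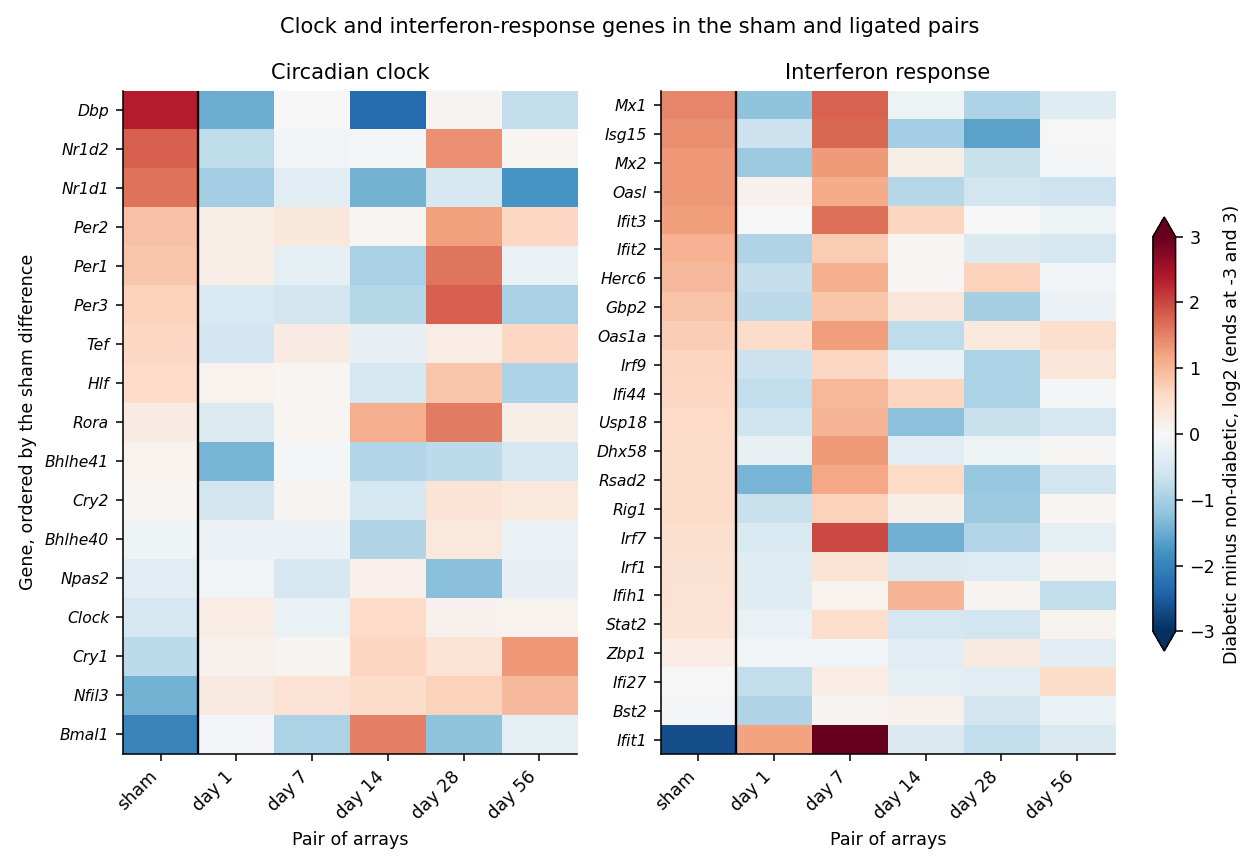
Difference between diabetic and non-diabetic arrays (colour, log2, red higher and blue lower in diabetic) for 17 clock genes (left) and 23 interferon-response genes (right), ordered by the sham difference, in the sham pair (left column of each panel) and the 5 ligated pairs. The colours of the clock genes Dbp, Nr1d1 and Nfil3 in sham do not recur after ligation, and the red of the interferon list in sham recurs at day 7; the day 7 value of Ifit1, 4.21, lies beyond the end of the scale.

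Chaperones and genes of the unfolded protein response were lower in 22 of 25 kept members, with a median of -0.46. Past 2-fold lower were 2, where 0.772% of all genes were. Sdf2l1, a component of chaperone complexes of the endoplasmic reticulum, was at 326 and 96.5 (-1.61) and the inducible heat shock protein gene Hspa1a at 372 and 116 (-1.56). The endoplasmic reticulum chaperones Hspa5 and Hsp90b1 were at -0.85 and -0.81, the factor Xbp1 at -0.71, and the small heat shock protein Hspb1 at -0.76. The mitochondrial chaperones Hspd1 and Hspe1 were at 0.00 and 0.02. After ligation the list's medians were -0.43 to 0.36 and none of its members passed. Proteasome subunits were lower by smaller amounts, with 20 of 24 below 0, none past 2-fold and a median of -0.20. Their median ran from -0.37 to 0.13 after ligation.

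Contractile genes were mostly lower by less than 2-fold. Of 20 adult sarcomere genes 17 were below 0, none was past 2-fold by its brightest probe set, and the median was -0.14. After ligation the list's median ran from -0.29 to 0.11. Tcap was the highest, at 3309 and 4752 (0.52), and the probe sets of Ldb3 ran from -0.78 to -0.25. Myh6, the fast α-myosin heavy chain of the adult rat ventricle, was at 6135 and 3619 (-0.76), while its other probe set was at -1.61. It was below 0 on all 5 ligated days at -0.72 ± 0.18 (SE, 5 pairs, limma adjusted p = 0.258). Myh7, the slow β form that replaces it in the stressed or hypothyroid rat heart, was bright on both arrays at 6178 and 6682 (0.11, other probe set 0.39). Of 13 hypertrophy and fetal genes 1 was 2-fold higher, where 0.81% of all genes were. It was Nppa, the atrial natriuretic peptide gene, at 2229 and 5725 (1.35). Nppb, the B-type peptide gene, was at -0.31, and the stress genes Ankrd1 and Rcan1 were at -0.72 and -0.94. Markers of atrial myocytes did not share 1 direction. Tbx5, Dkk3 and Myl4 were above 0 like Nppa, at 0.97, 0.79 and 0.22. Myl7, the atrial light chain, was lower, at 157 and 43.9 (-1.53), and sarcolipin (Sln) was at 46.9 and 17.1, under the filter. Of the 7 atrial markers kept 5 were above 0, and their summed intensity, which includes Nppa, was 3178 and 6993. Their part in the Nppa value was not tested.

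Ion channels held 1 gene past 2-fold each way among 20 kept, where 0.81% of all genes were higher and 0.772% lower. Scn4b, a β subunit of the cardiac sodium channel, was at 721 and 246 (-1.50) and was below 0 on all 5 ligated days at -1.65 ± 0.29 (SE, 5 pairs, limma adjusted p = 0.0718). Kcna4, the potassium channel Kv1.4 of the slowly recovering transient outward current, was at 16.6 and 54.4 (1.11), with 0.95 ± 0.23 (SE, 5 pairs, limma adjusted p = 0.258) after ligation. Calcium handling genes had none past 2-fold in 17 by the brightest probe set and a median of 0.03. The calcium release channel Ryr2 was at -0.25 and its other probe set at -1.16. The sarcoplasmic calcium pump Atp2a2 was at -0.23 and the junction protein Jph2 at -0.62.

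Extracellular matrix genes were lower in 36 of 41 kept members, with a median of -0.27. Past 2-fold lower were 2, where 0.772% of all genes were. Scx, which encodes scleraxis, a transcription factor known from tendon, was at 298 and 95.3 (-1.49), with -1.48 ± 0.28 (SE, 5 pairs, limma adjusted p = 0.0968) after ligation. Col15a1, a basement membrane collagen, was at 294 and 128 (-1.11, other probe set -0.94) and Col6a3 at 298 and 152 (-0.91). Col1a2 and Col3a1, of the fibrillar collagens, were at -0.67 and -0.53. Fibroblast markers lay the same way: 10 of 11 were below 0, their median was -0.33, and their summed intensity was 16029 on the non-diabetic and 12730 on the diabetic array. In pooled tissue, fewer cells of a type and less RNA in each cannot be told apart. The matrix list's median after ligation ran from -1.70 at day 28 to 0.61 at day 14.

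Npy, Penk and Sctr, 2 neuropeptide precursors and a peptide receptor, were among the genes of largest difference. Npy, neuropeptide Y of cardiac sympathetic nerves, was at 676 and 52.1 (-3.35). After ligation it ran from -1.21 to 0.67 and its mean was -0.24 ± 0.29 (SE, 5 pairs, limma adjusted p = 0.855). On the log2 scale its non-diabetic sham level of 9.44 was the highest of all 12 arrays. Of 7 markers of Schwann cells and neurons kept, 5 were below 0 and Npy alone was past 2-fold, with a median of -0.32. Prph, S100b and Mbp were at -0.61, -0.53 and -0.32, the last with its other probe set at 0.02. Dbh, which makes noradrenaline, was at 16.4 and 23.7 (0.29), and Th, the enzyme of the limiting step before it, at 22.3 and 23.8, under the filter. Penk, which encodes the enkephalin precursor, made in heart muscle as well as in nerves, was at 713 and 3750.3 (2.37), with ligated differences of 0.02 to 1.51 and a mean of 0.73 ± 0.19 (SE, 5 pairs, limma adjusted p = 0.299). Sctr, the secretin receptor, was at 127 and 16.5 (-2.13) and passed the ligated test at -1.85 ± 0.27 (SE, 5 pairs, limma adjusted p = 0.033).

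Antioxidant, detoxifying and carbonyl-reducing genes had 3 of 32 kept members past 2-fold higher and none lower, where 0.81% and 0.772% of all genes were. All 3 passed the ligated test, but the list was drawn with earlier results of these data known. Of the 32, 12 were above and 20 below 0, with a median of -0.08. Aldh2 was the lowest, at 1889 and 1122 (-0.74), and Gstm2 and Akr1b1 were at -0.67 and -0.44. Cyp1a1, a cytochrome P450 induced through the aryl hydrocarbon receptor, was near the bottom of the range on the non-diabetic array, at 3.45 and 169 (3.25, the highest among the brightest probe sets of named genes), and was 1.91 ± 0.19 (SE, 5 pairs, limma adjusted p = 0.00233) after ligation. Cbr1, a carbonyl reductase, was at 227 and 908 (1.92), with 1.41 ± 0.22 (SE, 5 pairs, limma adjusted p = 0.0406). Txnip, a thioredoxin-binding protein whose gene is induced by glucose, was at 1104 and 3008 (1.43), with 1.17 ± 0.18 (SE, 5 pairs, limma adjusted p = 0.0406). Outside the list, Dcxr, a reductase of xylulose and of dicarbonyl compounds, was lower, at 378 and 101 (-1.75), with -1.52 ± 0.24 (SE, 5 pairs, limma adjusted p = 0.045). As it too reduces carbonyl groups, the absence of genes past 2-fold lower holds for the list alone.

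Insulin and IGF signalling had 2 of 24 members past 2-fold higher and 1 lower, where 0.81% and 0.772% of all genes were. Pik3r1, the p85α regulatory subunit of phosphoinositide 3-kinase, was at 6.42 and 65.9 (1.87), and Igf2 was at 1.08 by its brightest and 0.14 by its other probe set. Both took either sign after ligation. Igfbp5, a binding protein of IGFs, was at 470.1 and 117 (-1.87), with 3 probe sets from -1.87 to -0.76, and was below 0 on all 5 ligated days at -1.11 ± 0.20 (SE, 5 pairs, limma adjusted p = 0.0861). Outside the list Pik3c2g, a class II phosphoinositide 3-kinase, was at 11.9 and 184 (2.84) and passed at 2.94 ± 0.22 (SE, 5 pairs, limma adjusted p = 0.000235), with its smallest ligated difference at 1.97. Irs2, an insulin receptor substrate, was at 0.54 in sham. Of 17 FoxO target and atrophy genes 12 were above 0, with a median of 0.15, none was higher past 2-fold and 1 was lower. The highest were Eif4ebp1, an inhibitor of cap-dependent translation, at 0.62 and Cited2, a transcriptional coregulator, at 0.57. The lower gene was Cdkn1a, the cell cycle inhibitor p21, at 384 and 151 (-1.26). Fbxo32, the atrophy ubiquitin ligase atrogin-1, was at -0.61.

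Card9, an adaptor of innate immune signalling below C-type lectin receptors, had the largest difference among the brightest probe sets of named genes. It was at 343 and 1.03 (-4.40), near the bottom of the range on the diabetic array, and was measured by 1 probe set. On the log2 scale the 5 non-diabetic ligated arrays lay between 7.62 and 9.14 and the 5 diabetic ones between 4.32 and 5.56, with no overlap, and the ligated mean was -3.38 ± 0.24 (SE, 5 pairs, limma adjusted p = 0.000191). Among other large differences that were present in the ligated rats, Bex1 was at 154 and 1049 (2.64). Tceal5, of a related gene family, was at 6.1 and 95.4 (2.33), near the bottom of the range on the non-diabetic array. Bex1 and Tceal5 both passed, at 1.90 ± 0.25 (SE, 5 pairs, limma adjusted p = 0.0226) and 1.86 ± 0.16 (SE, 5 pairs, limma adjusted p = 0.000724). Rbp7, a cellular retinoid-binding protein, was at 131 and 1241 (3.10), Ckb, the brain-type creatine kinase, at 547 and 151 (-1.75) and Gcat, of threonine breakdown, at 168 and 32.8 (-1.91). Those 3 kept the sign of sham on all 5 ligated days and had limma adjusted p of 0.0861, 0.0861 and 0.0571.

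Other large sham differences did not pass the ligated test. Ces1d, a carboxylesterase, was at 502 and 153 (-1.62) and had a ligated mean of 0.04 ± 0.26 (limma adjusted p = 0.978). Dhdds, an enzyme of dolichol synthesis, was at 607 and 135 (-2.04) with -0.57 ± 0.20 (SE, 5 pairs, limma adjusted p = 0.501). Ap1s3, a subunit of a clathrin adaptor, was at 2.19, and C2cd4b at 1.88, against 0.38 ± 0.26 and 0.73 ± 0.26 (limma adjusted p = 0.749 and 0.491). Ano5, an anoctamin of muscle membranes, was at -1.71 with -1.14 ± 0.28 (SE, 5 pairs, limma adjusted p = 0.258). Dhdds was below 0 on all 5 ligated days and Ano5 on 4 of 5. Conversely, a few genes passed the ligated test with a difference under 2-fold in sham. Fndc5, which encodes the precursor of irisin, was at -0.81 and -0.84 by 2 probe sets and at -1.46 ± 0.20 and -1.33 ± 0.19 after ligation (SE, 5 pairs, limma adjusted p = 0.0275 and 0.0325), and Aplnr, the apelin receptor, was at -0.80 and -1.60 ± 0.20 (SE, 5 pairs, limma adjusted p = 0.0137). Apln, which encodes its ligand, was at 148 and 65.8, past 2-fold lower.

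Whether the sham difference departs from that after ligation was tested for every probe set. With 1 sham pair, 0 of 18625 passed in the limma interaction fit after Benjamini-Hochberg adjustment, the smallest adjusted p being 1.00, and 125 (0.671%) had an unadjusted p under 0.05. On simulated data with the size of these arrays, that fit recovered 0% of interactions of 1 and 26.5% of interactions of 2 on the log2 scale, whereas the fit of the ligated pairs recovered 64.5% and 97%. The error of that fit is the spread of the difference over the ligated days. The interquartile range of differences was 0.33 in the sham pair and as wide as 0.76 after ligation, at day 28. The share under 0.05 before adjustment was smaller than that threshold itself, so the p-values of the interaction fit run high. Departures of 2-fold were therefore not detectable with these arrays, and no gene is called particular to the sham heart.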

How the data were processed

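RNA of left ventricular free wall, pooled from 3 rats for each array, was measured on 12 Affymetrix arrays, 2 of them from sham-operated rats. The authors deposited linear intensities, 1 for each array and probe set. Affymetrix Expression Console and PLIER are named per the submitters' processing notes, without versions or settings. The sources used here do not state whether arrays were scaled to each other. Of 31099 rows, 57 control probe sets were removed. Intensities were turned into log2(intensity + 16), and the 18625 probe sets whose mean over the 12 arrays was above the 40th percentile (5.20) were kept.

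Symbols came from the platform annotation, in which 20826 probe sets had 1 symbol, 436 several and 9780 were not listed. Each of 10623 genes was represented by its brightest probe set. The sham pair was described without a test. For the ligated pairs a linear model was fitted (limma 3.58.1, R 4.3.3, day as a factor plus diabetes, variance trend, Benjamini-Hochberg adjustment, 4 residual degrees of freedom), and so was the sham difference minus the mean ligated difference. Nothing in the labels gives separate replicates of a group, so the spread in these fits is that between days. Both fits were tested on simulated data. The precision is limited by the number of arrays.

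Genes named were the 15 higher and 15 lower genes of largest sham difference past 2-fold whose kept probe sets shared 1 sign, up to 5 members of each gene list with the largest differences, and a list of genes looked up in any case. Other members were added for their role. The comparison, the gene lists and the motifs were chosen with earlier results of these data known. Alternatives covered the number added, the filter, the scaling between arrays, the mean over a gene's probe sets, the 2-fold limit, the variance trend and the days included.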

Additional observations from a re-analysis of the deposited data

Results flagged for a closer look

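Both clock genes below were singled out because every ligated pair differed in the direction opposite to the sham pair. For Nr1d1, which encodes REV-ERBα, the sham difference minus the mean ligated difference was 2.63. For Nfil3 the same quantity was -2.00. The unadjusted p-values of the limma interaction fit are given with the clock genes, and neither passed after Benjamini-Hochberg adjustment, where the smallest adjusted p of any probe set was 1.00. A sign opposite to sham on all 5 ligated days was found for 177 of 10623 genes (1.67%).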

How the results depend on the processing

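The number of probe sets past 2-fold in the sham pair was 272 and depended on the number added before the logarithm. It was 518 (251 higher, 267 lower) with 1 added and 109 (64 higher, 45 lower) with 64, and a 1.5-fold limit gave 1145 (538 higher, 607 lower). Without a filter, with a filter on the brighter sham array, and under both other scalings it was 269 to 293. Of the 30 genes of largest difference, all 30 stayed past 2-fold in the same direction with 1 added and under both scalings, and 28 with 64 added. Of 257 genes looked at, 28 had a sham difference that moved by more than the spread of a difference in the ligated fit under 1 or more alternatives, among them 15 with 1 added, 19 with 64 added and 7 of 60 when a gene's probe sets were averaged. The medians of 51 gene lists moved by at most 0.27 in 255 recomputations, and 5 changed sign, in 2 lists whose medians were within 0.013 of 0. The ligated fit passed 20 probe sets, 16 to 27 under other settings of the values, 9 with days 14 to 56 alone and 6 to 40 when 1 pair was left out. Of those 20 probe sets, 15 missed the threshold under 1 or more alternatives. The interaction passed 0 probe sets, and with 1 added it passed 1, a probe set with no gene name here. No sham difference past 2-fold among the genes looked at changed sign under the alternatives, and neither did a ligated difference of the 20 probe sets. Changes of sign of smaller sham differences were not counted. The ligated fit is paired by day.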

Other observations

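The genes below were picked from those past 2-fold in the sham pair after their values had been seen, and say nothing of a group. Of 3 genes known from platelets, Pf4, platelet factor 4, was at 890.3 intensity units on the non-diabetic and 306 on the diabetic sham array (-1.49), Tubb1, the platelet β-tubulin, at 117 and 25.3 (-1.69), and Clec1b, a platelet receptor, at 71.6 and 15.6 (-1.47). After ligation Pf4 ran from -1.58 to 0.57, Tubb1 from -0.83 to 0.40 and Clec1b from -1.07 to 0.85, so none had 1 sign over the days. Of 5 erythroid markers kept, all 5 were below 0 in the sham pair, with a median of -0.26 and Ahsp the lowest at -1.01.

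Of metabolic genes picked in the same way, Aqp7, a glycerol channel, was at 453 and 1282 (1.47) and above 0 on all 5 ligated days (0.80 ± 0.20, SE, 5 pairs, limma adjusted p = 0.258). Arrdc4, a relative of Txnip, was at 41.0 and 135 (1.40), also above 0 on all 5 days (0.80 ± 0.23, SE, 5 pairs, limma adjusted p = 0.359). Hilpda, an inhibitor of the triglyceride lipase Pnpla2, was at 43.3 and 108 (1.06), and Retsat, a retinol saturase, at 661 and 1970.5 (1.55). Hilpda and Retsat took both signs after ligation. Interferon-induced genes not in the list, Ddx60, Trim25, Ubd, Rtp4 and Gbp4, were at 1.83, 1.79, 1.72, 1.12 and 1.08. Their ligated means were -0.28, 0.21, 0.32, -0.49 and 0.08, and each of them took both signs over the days. The homeobox genes Irx1 and Irx2 were at 1.15 and 1.09, with both dim on the non-diabetic array at 7.96 and 9.94 intensity units. They too took both signs after ligation, with means of -0.02 and 0.39.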
